A study of Mus musculus with 15 samples.

Results

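Cultured mouse mammary epithelial cells that carried a MYC retrovirus were compared with cells in which Rb had been deleted, both on a p53-deleted background. The comparison used the 3 arrays titled p53-, Myc+ against the 3 titled p53-, Rb-, which makes 6 of the 15 arrays of the series. All cells came from female mice 8 weeks old and were sub-cultured in DMEM/F12 with horse serum, EGF, insulin, cholera toxin and hydrocortisone, and RNA was taken while they proliferated. In both groups adenoviral Cre recombinase had deleted p53. The p53- Rb- cells had also lost Rb through Cre and carried no MYC virus per their labels, while the p53- Myc+ cells kept Rb per their labels and overexpressed MYC from a retrovirus. The groups thus differ in the Rb deletion and in the MYC retrovirus at once, so within this comparison the 2 cannot be told apart. The p53- arrays, read further on, show which group lay away from p53-. The other 9 arrays, 3 per group, were wild-type cells (WT), cells with p53 deleted alone (p53-) and cells with both deletions and MYC (p53- Rb- Myc+). The labels do not say whether cells without MYC received a control retrovirus, whether the viruses reached every cell, or whether replicates are separate mice or separate dishes. The p-values therefore reflect only how these samples vary, which may be technical.

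The retinoblastoma protein Rb binds E2F transcription factors and holds back the genes that they drive at entry into S phase, and its deletion frees those factors. MYC pairs with MAX at E-box sequences and is best known for raising the genes of ribosome production, nucleotide synthesis and growth. p53 stops the cycle or starts cell death after damage. The mammary epithelium has an inner luminal layer with keratins 8 and 18 and an outer basal or myoepithelial layer with keratins 5 and 14, and both layers hold their cells together with E-cadherin, claudins and desmosomes.

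Every level below is the deposited intensity of a gene's probe set, and every difference is p53- Myc+ minus p53- Rb- on the scale of log2(intensity + 16), given ± its standard error (SE). The added 16 makes differences of dim genes smaller than the ratio of their intensities. The call for a gene was a limma p, adjusted by Benjamini-Hochberg over all 19938 genes tested, under 0.05. In all, 7292 genes (36.6%) passed this call, of which 3172 (15.9% of the genes tested) were higher in p53- Myc+ and 4120 (20.7%) higher in p53- Rb-. Differences of 2-fold or more were seen for 2820 genes (14.1%), of which 637 (3.19%) were higher in p53- Myc+ and 2183 (10.9%) higher in p53- Rb-, and differences of 4-fold or more for 30 and 798. The 3 arrays of one group lay wholly above those of the other for 9387 genes (47.1%), with p53- Myc+ above for 22.8% and p53- Rb- above for 24.3% of all genes, so a lack of overlap alone is common here. The median difference over all genes was 0.06. Pearson's r between arrays over all genes, which are not independent replicates, was 0.964 to 0.977 within p53- Myc+, 0.974 to 0.989 within p53- Rb- and 0.812 to 0.852 between the groups. p53- Rb- arrays had r of 0.908 to 0.967 with p53- arrays, whereas p53- Myc+ arrays had 0.832 to 0.853 with p53- and 0.946 to 0.968 with p53- Rb- Myc+ arrays. Median intensities of the 15 arrays lay between 41.28 and 54.9.

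Rb1 and Myc, the targeted genes, were read first as a check of the labels, and neither differed between the groups in the direction of the labels. Rb1, the gene of the retinoblastoma protein, had intensities of 52.7, 55.3 and 64.2 in the p53- Rb- arrays and 48.04, 26.8 and 34.4 in the p53- Myc+ arrays, against a mean of 161 in p53- and 18.7 in p53- Rb- Myc+. All 3 arrays of the group labelled as keeping Rb lay below all 3 of the Rb-deleted group, a log2 difference of -0.50 ± 0.16 (adjusted p = 0.0195). The call was lost without p53- Myc+ replicate 2 (-0.37, adjusted p = 0.115) and without p53- Rb- replicate 3 (-0.44, adjusted p = 0.0778). The probe set spans parts of the gene that are not stated, so it may read exons outside the deletion, which limits it as a check. Its signal lay below the p53- mean in both Rb-deleted groups and also in p53- Myc+, labelled as keeping Rb. The reason was not tested. The Myc probe set read 811, 779 and 978 in the p53- Rb- arrays and 114, 108 and 162 in the p53- Myc+ arrays, a log2 difference of -2.61 ± 0.17 (adjusted p = 1.77e-11). The mouse Myc signal was thus 6.10-fold lower (on the scale with 16 added) in the arrays labelled as overexpressing MYC, and a probe set for the mouse gene need not read the transgene of a retrovirus, whose sequence is not given. Trp53 was not analysed here. Below, p53- Myc+ and p53- Rb- stand for the libraries labelled so, and every direction rests on those labels.

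Desmosome, keratin and luminal genes had the largest medians of the 54 lists, followed by tight junction genes, all toward p53- Rb-. Of 15 keratin genes 12 were higher in p53- Rb- and 0 in p53- Myc+, with a median difference of -3.79. Of 20 tight junction genes 18 were higher in p53- Rb- (median -2.52), and so were 16 of 18 desmosome and hemidesmosome genes (median -3.82). These shares compare with 20.7% of all genes in that direction. None of the 3 lists had a member that passed as higher in p53- Myc+ (15.9% of all genes). The size depends on the constant, and over the alternatives run, which include 1 or 64 in place of 16, the keratin median lay between -6.16 and -3.23 and the tight junction median between -3.79 and -1.59.

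Krt18, a keratin of luminal cells, had intensities of 4238, 4358 and 4492 in the p53- Rb- arrays and 10.7, 0.471 and 3.18 in the p53- Myc+ arrays. The groups did not come near each other, with a log2 difference of -7.75 ± 0.17 (adjusted p = 5.35e-19), a size that depends on the added 16 because the p53- Myc+ arrays lie under it. Its partner Krt8 read 3405, 3344 and 3009 in the p53- Rb- arrays and 86.05, 9.45 and 55.4 in the p53- Myc+ arrays, a log2 difference of -5.84 ± 0.32 (adjusted p = 8.69e-13). Krt5, a keratin of basal cells, read 2268, 2271 and 1874 in the p53- Rb- arrays and 10.01, 0.389 and 6.14 in the p53- Myc+ arrays, a log2 difference of -6.67 ± 0.18 (adjusted p = 7.61e-18). Krt18 and Krt5 were thus under 16 in all 3 p53- Myc+ arrays, while Krt8 was unequal among them. The other keratins with a call differed by Krt14 (-6.43), Krt17 (-6.16), Krt7 (-6.81), Krt6a (-5.08), Krt19 (-3.79), Krt80 (-2.88), Krt16 (-2.41), Krt6b (-1.55) and Krt20 (-0.80), of which Krt20 was named after its value was seen. The Krt19 difference was the smallest of the keratins that mark the mammary layers, with 65.7, 81.6 and 79.5 in p53- Myc+.

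Junction genes were lower in the same arrays. Cdh1, the gene of E-cadherin, read 1712, 1712 and 1528 in the p53- Rb- arrays and 13.9, 23.5 and 22.6 in the p53- Myc+ arrays, a log2 difference of -5.54 ± 0.16 (adjusted p = 2.49e-17). Epcam, an adhesion molecule of epithelial cells, read 1799, 1877 and 1371 in the p53- Rb- arrays and 5.74, 13.8 and 11.2 in the p53- Myc+ arrays, a log2 difference of -6.01 ± 0.17 (adjusted p = 1.03e-17). No array of one group overlapped those of the other for either gene. Claudins, which seal tight junctions, differed by -6.09 (Cldn7), -6.07 (Cldn3), -6.02 (Cldn4), -5.24 (Cldn1) and -4.77 (Cldn6). Ocln, the gene of occludin, differed by -2.04, and Tjp1, the gene of the scaffold ZO-1, by -0.99, with 218, 179 and 210.1 in the p53- Myc+ arrays. Among desmosome genes the differences were Jup (-5.08), Dsp (-4.35), Pkp1 (-4.02), Dsg3 (-3.92), Pkp3 (-3.72), Dsg2 (-3.49) and Dsc2 (-2.59). For the hemidesmosome, which anchors basal cells to the basement membrane, they were Lamb3 (-5.17), Itgb4 (-4.91), Lama3 (-4.06) and Col17a1 (-4.05). In the 18 genes of the cadherin and Epcam list 8 were higher in p53- Rb- and 3 in p53- Myc+. Cdh2, the gene of N-cadherin, did not pass at -0.38 (adjusted p = 0.0961), while the protocadherin gene Pcdh19 was higher in p53- Myc+ at 1.60.

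**Figure D1:**
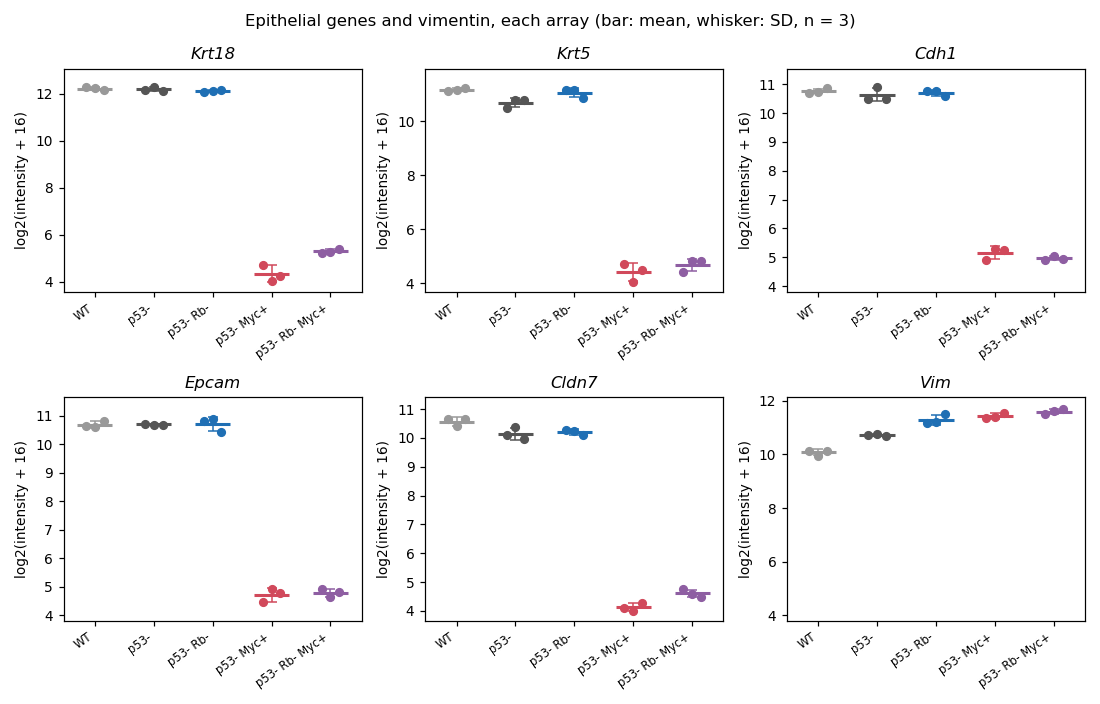
Each panel plots log2(intensity + 16) of 1 gene in all 15 arrays by group; points are arrays, the bar is the group mean and the whisker the SD of 3 arrays. Krt18, Krt5, Cdh1, Epcam and Cldn7 lie near the bottom of the scale in the p53- Myc+ and p53- Rb- Myc+ arrays and high in the other 3 groups, whereas Vim overlaps between p53- Rb- and p53- Myc+.

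Markers of the labelled cell type were checked the same way. Of 33 luminal mammary genes 26 were higher in p53- Rb- and 0 in p53- Myc+ (median -3.48), and 21 of them had a mean under 16 in p53- Myc+, against 1 in p53- Rb-. Their summed intensity was 29647 to 32541 in the p53- Rb- arrays and 974 to 1061 in the p53- Myc+ arrays. Basal and myoepithelial genes were less uniform, with 19 of 29 higher in p53- Rb-, 3 higher in p53- Myc+ and 7 that did not pass (median -2.50). Their summed intensity was 17780.4 to 18633 and 4924 to 5131. The p53- Myc+ arrays thus had Krt18, Krt5 and Krt14 (at 17.7, 10.6 and 1.60) near the bottom of the scale, against their label of mammary epithelium, while Krt8 and Krt19 were low but above it in some or all arrays. In bulk RNA fewer cells of a type and less RNA per cell cannot be told apart.

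Gata3, a factor of luminal identity, read 416, 381 and 438 in the p53- Rb- arrays and 5.42, 4.27 and 1.05 in the p53- Myc+ arrays, a log2 difference of -4.45 ± 0.20 (adjusted p = 2.30e-14). The milk protein gene Csn3 read 2665, 2411 and 3739 in the p53- Rb- arrays and 11.99, 10.7 and 11.8 in the p53- Myc+ arrays, a log2 difference of -6.72 ± 0.19 (adjusted p = 1.03e-17). For both genes every p53- Myc+ array was under 16. Other luminal genes differed by -5.94 (Spint2, a protease inhibitor), -4.35 (Rab25, of apical recycling), -4.38 (Muc1, the apical mucin), -1.97 (Elf5, of alveolar cells) and -1.53 (Kit, a receptor of luminal progenitors). Muc1 stood apart in one respect, since its mean was 497 in p53- Rb- and 374 in WT but 18.9 in p53-, so the gap to p53- Myc+ was a gap to p53- as well (p53- Rb- minus p53- 3.89). The hormone receptor genes Esr1 (-0.23) and Pgr (-0.05) were dim in both groups and did not pass, and neither did Foxa1 (0.02).

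Trp63, which encodes the basal master factor p63, read 151, 158 and 143 in the p53- Rb- arrays and 12.2, 12.5 and 5.66 in the p53- Myc+ arrays, a log2 difference of -2.68 ± 0.18 (adjusted p = 3.46e-11), without overlap. Sfn, an epithelial 14-3-3 gene, differed by -5.55, Cdh3 (P-cadherin) by -4.42, Lgals7 (galectin-7) by -4.79 and Cnn1 (calponin of contractile cells) by -4.58. Acta2, the smooth muscle actin of myoepithelium, did not pass, with 2728, 2620.2 and 3656 in the p53- Rb- arrays and 2097, 2477 and 2389 in the p53- Myc+ arrays, and Mylk did not either (0.24). Snai2, a factor of basal cells and of epithelial-mesenchymal transition, ran the other way at 0.76, as did Vcan, a proteoglycan gene, at 0.69.

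Promoters of 6 keratin, claudin and adhesion genes are printed here. They were picked because they carry the E-box that the repressors ZEB and SNAI are known to bind. Each window is the 250 bases before the gene's start in RefSeq (build GRCm38.p6), written 5′ to 3′ on the gene's strand. Capitals mark CACCTG or its reverse complement CAGGTG, both of which were searched. Both strands were searched for every motif.
Krt18 (chr15:102027966-102028215, + strand): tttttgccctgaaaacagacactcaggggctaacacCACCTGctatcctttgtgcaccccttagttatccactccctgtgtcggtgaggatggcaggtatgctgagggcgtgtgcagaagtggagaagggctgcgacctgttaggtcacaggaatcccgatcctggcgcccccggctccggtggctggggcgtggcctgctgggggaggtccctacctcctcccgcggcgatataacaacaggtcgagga
Krt8 (chr15:102004343-102004592, minus strand): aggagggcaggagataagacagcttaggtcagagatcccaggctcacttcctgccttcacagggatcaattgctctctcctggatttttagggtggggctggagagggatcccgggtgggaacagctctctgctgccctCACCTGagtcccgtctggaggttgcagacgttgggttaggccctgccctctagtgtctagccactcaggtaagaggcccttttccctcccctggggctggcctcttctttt
Krt5 (chr15:101712906-101713155, minus strand): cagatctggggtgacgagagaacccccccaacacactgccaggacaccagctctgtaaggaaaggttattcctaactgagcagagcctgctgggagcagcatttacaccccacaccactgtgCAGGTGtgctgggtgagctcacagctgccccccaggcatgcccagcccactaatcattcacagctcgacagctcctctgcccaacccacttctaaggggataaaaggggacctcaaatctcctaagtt
Krt7 (chr15:101412153-101412402, + strand): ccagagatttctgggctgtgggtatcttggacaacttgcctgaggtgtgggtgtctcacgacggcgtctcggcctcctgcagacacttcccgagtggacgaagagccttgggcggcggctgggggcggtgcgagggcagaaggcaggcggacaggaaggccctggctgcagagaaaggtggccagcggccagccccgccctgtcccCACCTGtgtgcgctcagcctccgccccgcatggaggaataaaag
Epcam (chr17:87635729-87635978, + strand): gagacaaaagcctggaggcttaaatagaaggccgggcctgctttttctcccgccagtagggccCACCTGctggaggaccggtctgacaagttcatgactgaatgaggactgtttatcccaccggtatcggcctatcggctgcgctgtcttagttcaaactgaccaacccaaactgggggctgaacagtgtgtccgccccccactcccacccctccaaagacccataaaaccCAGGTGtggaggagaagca
Cldn4 (chr5:134946935-134947184, minus strand): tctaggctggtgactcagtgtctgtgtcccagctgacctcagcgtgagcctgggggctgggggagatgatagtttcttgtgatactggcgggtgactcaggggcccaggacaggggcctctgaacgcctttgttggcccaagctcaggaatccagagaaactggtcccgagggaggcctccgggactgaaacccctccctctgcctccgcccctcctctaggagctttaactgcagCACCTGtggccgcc
Of the keratin genes with a listed promoter, 6 of 8 held the motif (75%), and of the tight junction genes 7 of 16 did (43.8%). The luminal list had 13 of 25 (52%), the basal list 3 of 16 (18.8%), the desmosome list 1 of 5 (20%) and the cadherin and Epcam list 2 of 9 (22.2%). Of all 27025 promoters listed 17.1% did, and of 15614 promoters of genes tested 16.6%. No match in a printed window overlapped another searched motif. Lists of other roles ranged widely. CACCTG was in 5 of 16 hypoxia-induced promoters (31.25%), 6 of 20 of integrins and laminins (30%) and 4 of 15 of Notch genes (26.7%). It was in 0 of 20 mesenchymal promoters and 0 of 37 of ribosome biogenesis. In these windows the motif lay as near as base 14 before the start of Cldn4 and as far as base 214 before that of Krt18. A match describes the letters and is not a measured site.

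Regulators of the epithelial state and factors of epithelial-mesenchymal transition split by role. Of 22 such genes 12 were higher in p53- Rb- and 5 in p53- Myc+. The epithelial side differed by -4.48 and -3.05 (Esrp1 and Esrp2, epithelial splicing regulators), -3.33 and -2.57 (Grhl2 and Grhl3, grainyhead factors), -3.22 (Ehf) and -2.74 (Elf3), both ETS factors of epithelium, and -1.17 (Ovol1). Zeb2, a repressor of E-cadherin, read 109, 134 and 135 in the p53- Rb- arrays and 400.5, 445 and 302 in the p53- Myc+ arrays, a log2 difference of 1.48 ± 0.18 (adjusted p = 5.14e-07). Twist2 read 300.1, 332 and 637 in the p53- Rb- arrays and 1081, 1264 and 1142 in the p53- Myc+ arrays, a log2 difference of 1.5005 ± 0.21 (adjusted p = 4.10e-06). Prrx1, a homeobox factor of mesenchyme, read 459, 556 and 612 in the p53- Rb- arrays and 1548, 1575 and 1341 in the p53- Myc+ arrays, a log2 difference of 1.44 ± 0.16 (adjusted p = 2.34e-07). For these 3 genes all p53- Myc+ arrays lay above all p53- Rb- arrays, and Twist1 (0.89) passed in the same direction. Zeb1 (-0.16) and Snai1 (0.22) did not pass and their arrays overlapped.

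Of 30 mesenchymal genes 18 were higher in p53- Rb-, 2 higher in p53- Myc+ and 10 did not pass. Vim, the mesenchymal intermediate filament gene, read 2281, 2329 and 2898 in the p53- Rb- arrays and 2579.7, 2682 and 2959 in the p53- Myc+ arrays, which overlapped, with a difference of 0.14 ± 0.15 (adjusted p = 0.519). Fn1, the gene of fibronectin, read 4768, 4883 and 5073 in the p53- Rb- arrays and 1025, 1103 and 1028 in the p53- Myc+ arrays, a log2 difference of -2.21 ± 0.14 (adjusted p = 2.41e-11). S100a4, a calcium-binding protein of mesenchymal cells, was one of the 2 higher in p53- Myc+, with 444, 528 and 515 in the p53- Rb- arrays and 1379, 1121 and 1486 in the p53- Myc+ arrays and a log2 difference of 1.39 ± 0.17 (adjusted p = 9.60e-07). Matrix and surface genes on the other side included Nt5e (-4.17), Tnc (-3.34), Ccn2 (-3.21), Itgb3 (-3.03) and Sparc (-0.59).

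Of 27 collagen genes 13 were higher in p53- Rb- and 12 did not pass. The basement membrane chains Col4a1 (-3.42), Col4a2 (-3.37) and Col18a1 (-4.09) were among those that passed. Fibrillar chains were divided. Col3a1 (-0.07, adjusted p = 0.779) and Col1a2 (-0.41, adjusted p = 0.0587) did not pass. Col11a1 and Col1a1 passed toward p53- Rb-, at -4.98 to -1.77 and -0.55 to -0.37 over the alternatives run. Col1a1 lost its call in 3 of 16 alternatives. Of the whole list 2 genes were higher in p53- Myc+. Col3a1 read 641, 654 and 845 in the p53- Rb- arrays and 702, 692 and 634 in the p53- Myc+ arrays, above the p53- mean of 261 in both groups. Elastic fibre and small proteoglycan genes went both ways, with 9 of 27 higher in p53- Myc+ and 12 higher in p53- Rb-. Ogn, the small proteoglycan osteoglycin, read 8.08, 17.95 and 15.6 in the p53- Rb- arrays and 129.9, 139.6 and 98.7 in the p53- Myc+ arrays, a log2 difference of 2.22 ± 0.21 (adjusted p = 1.61e-08). Mfap5, a microfibril protein gene, read 1667, 1554 and 2534 in the p53- Rb- arrays and 67.5, 91.1 and 125 in the p53- Myc+ arrays, a log2 difference of -4.13 ± 0.22 (adjusted p = 5.58e-13). These 2 genes of the same list did not overlap between groups and lay at opposite ends. Of 21 matricellular genes 14 were higher in p53- Rb-, including Ecm1 (-3.08), Sparcl1 (-2.79), Thbs1 (-1.47) and Thbs2 (-1.03), while Postn did not pass (-0.28).

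Proteases and their inhibitors were mostly higher in p53- Rb-. Of 27 metalloproteinase and inhibitor genes 19 were higher there, and 5 were higher in p53- Myc+, a number that fell to 2 without p53- Rb- replicate 1, 3 without p53- Myc+ replicate 1 and 1 without p53- Myc+ replicate 2. Mmp9, the gelatinase B gene, read 972, 976 and 935 in the p53- Rb- arrays and 20.2, 20.1 and 10.3 in the p53- Myc+ arrays, a log2 difference of -4.91 ± 0.16 (adjusted p = 2.90e-16). Timp3, an inhibitor bound to matrix, read 1961, 1877 and 1911 in the p53- Rb- arrays and 6.93, 21.4 and 4.57 in the p53- Myc+ arrays, a log2 difference of -6.21 ± 0.19 (adjusted p = 8.45e-17). Both a protease and an inhibitor were thus near the bottom of the scale in the same p53- Myc+ arrays. Other members differed by -3.64 (Mmp13), -2.48 (Mmp14, the membrane-bound activator), -1.37 (Mmp3) and -1.35 (Timp1). Of 13 genes of plasminogen activation and serpins 9 were higher in p53- Rb-, among them Plau, the gene of urokinase (-3.70), its receptor gene Plaur (-1.77) and the epithelial proteins St14 (-5.53) and Serpinb5 (-4.61). Serpinf1, the gene of pigment epithelium-derived factor, was the member higher in p53- Myc+ (0.52). Of 29 integrin and laminin genes 22 were higher in p53- Rb-, among them, beside the hemidesmosome members above, Itga3 (-4.64), Itga2 (-4.25), Itgb6 (-3.67), Lama5 (-3.29) and Itga6 (-2.64). Itgb1, the chain common to many integrins, differed less, at -0.82.

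Growth genes that passed were higher in p53- Myc+. All 42 of 42 ribosome biogenesis genes known as MYC targets were higher in p53- Myc+, beside 15.9% of all genes, with a median difference of 0.89. Of 28 genes of RNA polymerases I and III 17 were higher there (median 0.57), and of 27 genes of nucleotide, one-carbon and polyamine synthesis 19 were (median 0.82). None of these 3 lists had a member that passed as higher in p53- Rb-. Over all alternatives run, leaving out each array included, 39 to 42 of the ribosome biogenesis genes passed.

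Fbl encodes fibrillarin, which methylates ribosomal RNA, and read 1151, 1219.99 and 1199.5 in the p53- Rb- arrays and 2153, 2299 and 2298 in the p53- Myc+ arrays, a log2 difference of 0.91 ± 0.14 (adjusted p = 2.23e-05). Npm1, the gene of nucleophosmin, read 735, 801 and 753 in the p53- Rb- arrays and 1891, 1718 and 1854 in the p53- Myc+ arrays, a log2 difference of 1.24 ± 0.16 (adjusted p = 1.84e-06). Every p53- Myc+ array lay above every p53- Rb- array for both. In p53- arrays the means were 1083 for Fbl and 1277 for Npm1, and p53- Rb- did not pass against p53- for Fbl (0.13) but was lower for Npm1 (p53- Rb- minus p53- -0.71, adjusted p = 0.00368). The nucleolar genes Wdr43 (1.42), Dkc1 (1.36), Nop58 (1.35), Heatr1 (1.31), Ddx21 (1.29), Nolc1 (1.29), Gnl3 (1.12) and Ncl (1.07) passed with differences above 1, and Nop56 passed at 0.49. Polr1b, a large subunit of RNA polymerase I, read 128, 126 and 139.9 in the p53- Rb- arrays and 351, 362 and 354 in the p53- Myc+ arrays, a log2 difference of 1.34 ± 0.15 (adjusted p = 1.68e-07). Polr1e (1.32) and Polr1a (0.99) of the same enzyme, the initiation factor gene Rrn3 (0.67) and Gtf3a, the factor for 5S RNA (0.97), also passed.

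Among the synthesis genes, Cad, which starts pyrimidine synthesis, read 233, 238 and 277 in the p53- Rb- arrays and 661, 847 and 656 in the p53- Myc+ arrays, a log2 difference of 1.47 ± 0.17 (adjusted p = 3.86e-07). Srm, the spermidine synthase gene, read 619.6, 646 and 979.96 in the p53- Rb- arrays and 2066, 1754 and 2148 in the p53- Myc+ arrays, a log2 difference of 1.42 ± 0.18 (adjusted p = 7.84e-07). Neither overlapped, although p53- Rb- replicate 3 was the highest of its group for Srm. Dhodh (1.15) and Umps (1.07), later steps of the pyrimidine route, and Ppat (1.26), Prps1 (1.17) and Prps2 (1.00), which serve purine synthesis, were higher in p53- Myc+. So was the mitochondrial one-carbon gene Mthfd1l (1.11). Odc1, the ornithine decarboxylase gene often cited as a MYC target, did not pass (0.30, adjusted p = 0.14), and Paics (0.19) and Mthfd2 (0.28) did not either.

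**Figure D2:**
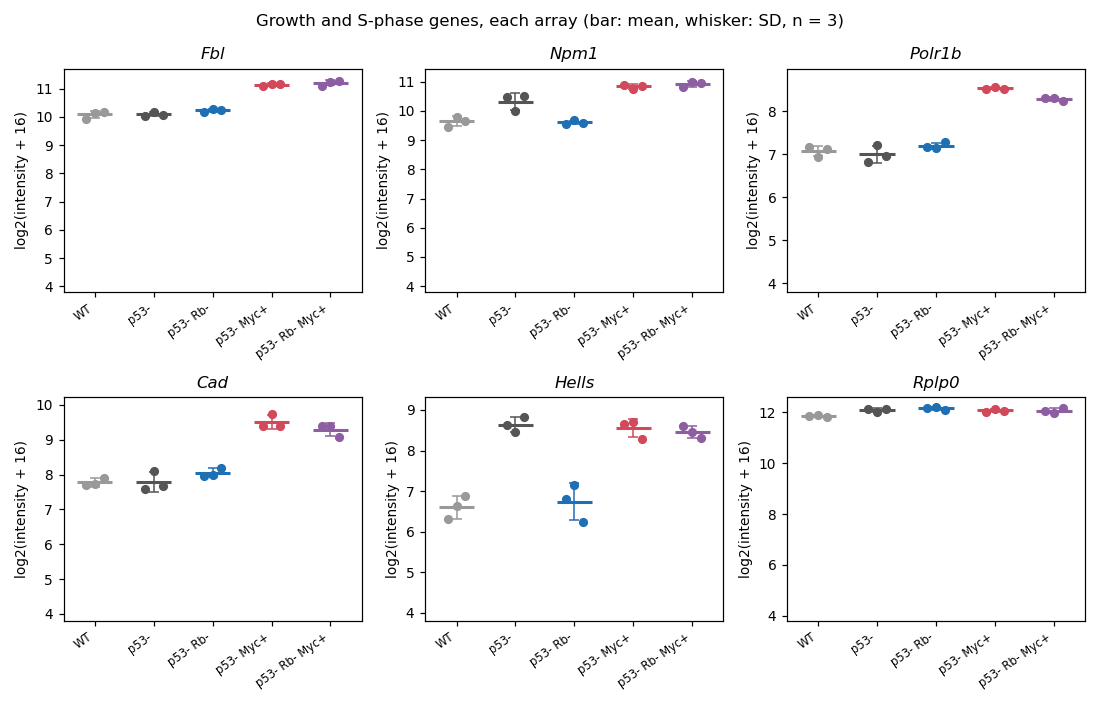
Each panel plots log2(intensity + 16) of 1 gene in all 15 arrays by group; points are arrays, the bar is the group mean and the whisker the SD of 3 arrays. Fbl, Npm1, Polr1b and Cad are higher in both MYC groups than in the other 3, Hells is low in p53- Rb- and WT, and Rplp0 overlaps between p53- Rb- and p53- Myc+.

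Genes of protein synthesis outside the nucleolus had smaller medians. Of 48 mitochondrial ribosomal protein genes 23 were higher in p53- Myc+ and 0 higher in p53- Rb- (median 0.39), with 15 without p53- Rb- replicate 1. Mrpl1 (1.097) and Mrpl16 (1.06) led, and Mrps12 did not pass (-0.02). Of 21 chaperonin and related genes 13 were higher in p53- Myc+, but 6 without p53- Rb- replicate 3 and 7 without p53- Myc+ replicate 1. Hspd1, the mitochondrial chaperonin, was among them at 0.91, as was the cytosolic chaperonin subunit Cct8 at 0.92. Of 32 cytosolic ribosomal protein genes 30 did not pass, and Rplp0 read 4606, 4692 and 4327 in the p53- Rb- arrays and 4124, 4493 and 4285 in the p53- Myc+ arrays, which overlapped, with a difference of -0.08 ± 0.14. Ribosomal protein genes themselves thus had a median difference of 0.14, beside 0.06 for all genes.

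Genes of S phase known as E2F targets, where they passed, were higher in the group labelled as keeping Rb. Of 45 such genes 25 were higher in p53- Myc+ and 0 in p53- Rb-, with a median of 0.46. Hells, a chromatin remodeller needed for DNA methylation, read 96.2, 127 and 59.8 in the p53- Rb- arrays and 389, 399 and 297 in the p53- Myc+ arrays, a log2 difference of 1.81 ± 0.21 (adjusted p = 2.44e-07). Ccne2, a cyclin of S-phase entry, read 43.5, 61.3 and 33.4 in the p53- Rb- arrays and 176, 137 and 196 in the p53- Myc+ arrays, a log2 difference of 1.59 ± 0.20 (adjusted p = 8.30e-07). Pola1, the catalytic subunit of the primase polymerase, read 101, 131 and 95.9 in the p53- Rb- arrays and 342, 475 and 252 in the p53- Myc+ arrays, a log2 difference of 1.54 ± 0.23 (adjusted p = 1.32e-05). None of these overlapped, and p53- Rb- replicate 3 had the lowest value of its group for each. The p53- means of Hells, Ccne2 and Pola1 were 384, 133 and 267, and the WT means 82.5, 24.9 and 78.1. On these genes p53- Rb- was below p53- (-1.90, -1.26 and -1.18, each passing), while p53- Myc+ did not pass against p53- (-0.09, 0.33 and 0.36). The list as a whole differed from them. Over all 45 genes, 34 were above p53- and 0 below in p53- Myc+ (median 0.72). In p53- Rb- 11 were above and 4 below (median 0.25).

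Several other E2F targets had no call. The replication licensing genes Mcm2 (0.36), Mcm3 (0.39) and Mcm5 (0.29) did not pass, and each was above p53- in both groups, at 0.46, 0.49 and 0.59 in p53- Rb- and 0.81, 0.88 and 0.88 in p53- Myc+, all passing. Pcna (0.32), Rrm2 (0.02) and Cdc6 (0.30) did not pass between the groups. Cdca7 was higher in p53- Myc+ (1.34), as were Pole (0.85) and Tyms (0.53). Without p53- Rb- replicate 3 the list still had 22 genes higher in p53- Myc+.

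Of 39 genes of mitosis 17 were higher in p53- Myc+ and 1 in p53- Rb- (median 0.35), and the first number was 10 without p53- Rb- replicate 3. Those with differences above 1 included the condensin genes Smc2 (1.44) and Smc4 (1.15), the checkpoint kinase gene Bub1 (1.11) and the spindle motor gene Kif11 (1.101). Smc2 read 173, 287 and 132 in the p53- Rb- arrays and 563, 629.8 and 435 in the p53- Myc+ arrays, without overlap, against 563, 584 and 631 in the p53- arrays. For Smc2 the lower group was thus again p53- Rb-, at -1.58 from p53-, with its replicate 3 lowest. Ccna2, cyclin A2, read 719, 771 and 748 in the p53- Rb- arrays and 1311, 1404 and 1431 in the p53- Myc+ arrays, a log2 difference of 0.87 ± 0.15 (adjusted p = 4.34e-05). The kinases Cdk1 (0.15), Plk1 (0.07) and Aurka (0.05) did not pass and their arrays overlapped.

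For the growth and cell cycle genes, 4 promoters are printed because each holds the motif most tied to its list. Windows and strands are as above. Capitals mark the palindrome CACGTG, the E-box of MYC, in Nop2 and Imp4, the E2F motif TTTGGCGC or its reverse complement GCGCCAAA in Pola1, and TTTGAA or its reverse complement TTCAAA, the CHR element of mitosis genes, in Kif11.
Nop2 (chr6:125131633-125131882, + strand): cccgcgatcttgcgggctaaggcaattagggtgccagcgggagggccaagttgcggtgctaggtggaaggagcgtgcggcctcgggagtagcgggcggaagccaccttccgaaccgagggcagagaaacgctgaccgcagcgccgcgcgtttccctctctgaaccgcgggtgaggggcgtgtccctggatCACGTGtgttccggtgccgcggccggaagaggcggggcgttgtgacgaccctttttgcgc
Imp4 (chr1:34439579-34439828, + strand): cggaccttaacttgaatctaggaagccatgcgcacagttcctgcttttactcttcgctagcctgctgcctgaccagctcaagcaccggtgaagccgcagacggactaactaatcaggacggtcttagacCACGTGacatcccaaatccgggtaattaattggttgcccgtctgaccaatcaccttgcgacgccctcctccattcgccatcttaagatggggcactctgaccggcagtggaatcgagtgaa
Pola1 (chrX:93632156-93632405, minus strand): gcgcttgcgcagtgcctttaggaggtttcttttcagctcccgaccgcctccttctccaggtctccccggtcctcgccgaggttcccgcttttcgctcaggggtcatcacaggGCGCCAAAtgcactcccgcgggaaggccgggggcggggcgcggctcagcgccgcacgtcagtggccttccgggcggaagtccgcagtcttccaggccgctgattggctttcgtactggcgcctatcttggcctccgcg
Kif11 (chr19:37376132-37376381, + strand): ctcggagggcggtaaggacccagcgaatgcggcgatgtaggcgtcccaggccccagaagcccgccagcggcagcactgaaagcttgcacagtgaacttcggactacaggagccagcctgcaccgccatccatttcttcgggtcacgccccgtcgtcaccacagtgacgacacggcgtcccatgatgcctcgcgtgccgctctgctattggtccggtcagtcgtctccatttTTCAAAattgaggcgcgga
Nop2 and Imp4 were named for the motif, not for their values. Nop2, an RNA methyltransferase of the nucleolus, differed by 0.86 and Imp4, of the small-subunit processome, by 0.41. CACGTG was in 2 of 37 ribosome biogenesis promoters (5.41%), beside 6.05% of all promoters and 7.03% of those of genes tested. TTTGGCGC was in 3 of 38 promoters of the S-phase list (7.89%) and 0.437% of all, and the sister motif TTTCGCGC in 4 of 38 (10.5%) and 0.255%. TTTGAA was in 11 of 32 promoters of the mitosis list (34.4%), beside 16.3% of all. These windows are short, and no match says only that the letters are not in them.

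Of 18 genes of the E2F and pocket proteins themselves 5 were higher in p53- Myc+ and 4 in p53- Rb-, beside 15.9% and 20.7% of all genes. The first number was 3 without p53- Myc+ replicate 3, and the second 0 without p53- Rb- replicate 3, 2 without p53- Myc+ replicate 1 and 1 without p53- Myc+ replicate 2. E2f1 read 334, 326 and 364 in the p53- Rb- arrays and 276, 381 and 295 in the p53- Myc+ arrays and overlapped (-0.11 ± 0.19, adjusted p = 0.69). Tfdp1, the partner of E2F proteins, was higher in p53- Myc+ (0.75), as were E2f4, a repressor E2F (0.69), and Mybl2, a factor of G2 genes (0.62). The Rb relatives Rbl1 (-0.32) and Rbl2 (-0.12) did not pass.

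Inhibitors of cyclin-dependent kinases went both ways. Cdkn2a, which encodes p16 and ARF from overlapping transcripts that 1 probe set cannot tell apart, read 165, 153 and 189 in the p53- Rb- arrays and 489.5, 639.6 and 469.7 in the p53- Myc+ arrays, a log2 difference of 1.56 ± 0.19 (adjusted p = 4.61e-07). All p53- Myc+ arrays were above all p53- Rb- arrays, whose mean of 169 was close to the 156 of p53-. Cdkn1c, the gene of p57, read 78.2, 71.1 and 86.3 in the p53- Rb- arrays and 17.3, 10.4 and 26.3 in the p53- Myc+ arrays, a log2 difference of -1.498 ± 0.17 (adjusted p = 1.49e-07). Cdkn2b (-0.87), Cdkn1b (-0.75) and Cdkn2d (-0.67) were likewise higher in p53- Rb-. Ccnd1, cyclin D1, read 2265, 2035 and 2729.8 in the p53- Rb- arrays and 1007, 1261 and 1190.1 in the p53- Myc+ arrays, a log2 difference of -1.01 ± 0.18 (adjusted p = 7.70e-05), while Ccnd2 (0.31) and Ccnd3 (-0.02) did not pass and Cdk6 was higher in p53- Myc+ (0.74). Cdkn2c did not pass (-0.03), although the triple group had a mean of 337 against 139 and 135 in the groups compared.

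Per the labels p53 was deleted in both groups. Of 33 of its known target genes 24 were higher in p53- Rb-, 3 in p53- Myc+ and 6 did not pass, with a median of -1.09, beside 20.7% of all genes higher in p53- Rb-. Perp, which is also a desmosome protein, read 635, 615 and 683 in the p53- Rb- arrays and 5.91, 4.61 and 9.40 in the p53- Myc+ arrays, a log2 difference of -4.87 ± 0.15 (adjusted p = 4.56e-17). Ak1, adenylate kinase, read 404, 387 and 563 in the p53- Rb- arrays and 10.5, 2.51 and 7.34 in the p53- Myc+ arrays, a log2 difference of -4.35 ± 0.20 (adjusted p = 5.55e-14). Ccng1, cyclin G1, read 531, 619 and 516 in the p53- Rb- arrays and 174, 250.01 and 215 in the p53- Myc+ arrays, a log2 difference of -1.33 ± 0.16 (adjusted p = 5.30e-07). Each had all p53- Myc+ arrays below all p53- Rb- arrays. Ak1 was also higher in p53- Rb- than in p53- arrays (2.02), whereas Perp (-0.22) and Ccng1 (-0.15) did not pass there. Several members, such as Perp and the receptor gene Epha2 (-3.28), are also expressed by epithelium. Of 22 genes of the BCL2 family and caspases 8 were higher in p53- Rb-, among them Casp8, the initiator caspase (-2.61), Pmaip1 (-2.10), Bcl2l1 (-1.63) and Bcl2l11 (-1.29). Bcl2 (-0.37) and Mcl1 (-0.02) did not pass.

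In the MYC network Ruvbl1 (1.24) and Ruvbl2 (0.81), helicases that work with MYC, were higher in p53- Myc+. The antagonist genes Mxd1 (-0.74) and Mxd4 (-1.04) were lower there, and Max (0.26), Mycn (-0.32) and Mnt (-0.33) did not pass. Of 19 members 3 were higher in p53- Myc+ and 6 in p53- Rb-, beside 15.9% and 20.7% of all genes. The second number was 3 without p53- Rb- replicate 1.

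The miR-17 cluster, a polycistron that MYC and E2F proteins are both known to drive, was looked at after its values were seen. Mature forms of Mir17, Mir18, Mir19a, Mir20a and Mir19b-1, not of every member of the cluster, are shown. The forms shown fall into 3 seed families. They lie on the + strand of chromosome 14 at chr14:115043684-115044380 (GRCm38.p6, RefSeq), and capitals mark the seed, bases 2 to 8.
mmu-miR-17-5p: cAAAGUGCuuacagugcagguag
mmu-miR-18a-5p: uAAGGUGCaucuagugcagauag
mmu-miR-19a-3p: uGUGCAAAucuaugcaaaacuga
mmu-miR-20a-5p: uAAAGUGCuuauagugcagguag
mmu-miR-19b-3p: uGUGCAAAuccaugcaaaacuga
miR-17-5p and miR-20a-5p share the seed AAAGUGC, miR-19a-3p and miR-19b-3p share GUGCAAA, and miR-18a-5p differs from both. The arrays read precursor genes, not mature forms. Mir17 read 21.9, 14.03 and 31.1 in the p53- Rb- arrays and 58.4, 119 and 94.3 in the p53- Myc+ arrays, a log2 difference of 1.45 ± 0.23 (adjusted p = 1.62e-05), without overlap. Mir18 (1.01), Mir20a (0.78), Mir19b-1 (0.75) and the host transcript Mir17hg (0.85) passed in the same direction, and Mir19a did not (0.28, adjusted p = 0.383). Each of them, Mir19a included, was under 16 in every p53- Rb- array, so these sizes depend on the added 16. In p53- Rb- Myc+ against p53-, Mir20a (0.12), Mir19b-1 (0.05) and Mir17hg (0.005) did not pass. Mir17 (1.25) and Mir18 (1.13) were higher there. Mir19a passed too (0.65), with 8.79, 36.7 and 8.06 in p53- Rb- Myc+ and 4.88, 4.97 and 2.53 in p53-. Of those arrays only p53- Rb- Myc+ replicate 2 was above 16. The p53- mean of Mir17hg was 44.6, against which p53- Rb- was lower (-1.20, adjusted p = 0.00052) and p53- Myc+ did not pass (-0.35).

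Ligands, receptors and targets of the main signalling routes, where they passed, were mostly higher in p53- Rb-. The counts below stand beside 20.7% of all genes higher in p53- Rb- and 15.9% higher in p53- Myc+. In TGF-beta and BMP signalling 19 of 32 genes were higher there and 3 in p53- Myc+. The ligand gene Tgfb1 read 490.4, 432 and 561 in the p53- Rb- arrays and 20.3, 22.4 and 32.8 in the p53- Myc+ arrays, a log2 difference of -3.64 ± 0.16 (adjusted p = 3.70e-14). Fst, the gene of the activin inhibitor follistatin, read 899.7, 934 and 918 in the p53- Rb- arrays and 27.9, 22.8 and 26.5 in the p53- Myc+ arrays, a log2 difference of -4.49 ± 0.17 (adjusted p = 1.62e-15). Tgfb1 and Fst were thus both lower in p53- Myc+, without overlap. Further differences were those of the ligands Inhba (-3.18), Inhbb (-2.93), Tgfb3 (-2.11) and Tgfb2 (-1.21), the receptor Tgfbr2 (-1.78), the transducer Smad3 (-1.78) and the target Id1 (-0.61).

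In Wnt signalling 16 of 36 genes were higher in p53- Rb- and 5 in p53- Myc+, a number that was 2 without p53- Rb- replicate 1 or p53- Myc+ replicate 2, and 3 without p53- Rb- replicate 2, p53- Myc+ replicate 1 or p53- Myc+ replicate 3. The ligand genes Wnt7b (-4.24), Wnt5b (-3.44), Wnt5a (-3.21) and Wnt10a (-2.25) were lower in p53- Myc+, and so was the receptor gene Fzd6 (-2.36). Sfrp2, a secreted modulator of Wnt, had the highest positive difference of the named genes, with 63.9, 48.98 and 112 in the p53- Rb- arrays and 829, 856 and 943 in the p53- Myc+ arrays and a log2 difference of 3.35 ± 0.20 (adjusted p = 5.51e-12). No array overlapped, and the p53- mean was 28.02. Its relative Sfrp1 did not pass (-0.19).

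Of 20 Notch genes 13 were higher in p53- Rb- and 2 in p53- Myc+. The receptor Notch1 read 298, 323 and 270.01 in the p53- Rb- arrays and 21.7, 25.4 and 19.8 in the p53- Myc+ arrays, a log2 difference of -3.03 ± 0.16 (adjusted p = 5.14e-13). The ligands Jag1 (-3.20), Dll1 (-2.63) and Jag2 (-1.33) and the targets Heyl (-3.29), Nrarp (-2.67), Hes1 (-2.45) and Hey1 (-0.84) went the same way, and Notch3 did not pass (-0.30). The p53- Rb- arrays were unequal for Heyl, with 129, 117 and 327.

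In the EGF receptor family 9 of 16 genes were higher in p53- Rb-. They included the receptors Erbb3 (-3.06), Egfr (-1.42) and Erbb2 (-1.14) and the ligands Hbegf (-2.24), Epgn (-1.99), Tgfa (-1.70) and Ereg (-1.17). In the IGF axis 11 of 15 were, with the binding proteins Igfbp5 (-3.83), Igfbp4 (-2.77) and Igfbp2 (-2.50), the ligands Igf2 (-2.16) and Igf1 (-1.30) and the adaptor Irs1 (-1.54), while the receptor Igf1r did not pass (-0.20).

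The FGF, PDGF, HGF and VEGF genes went both ways. Of 27, 6 were higher in p53- Myc+ and 13 in p53- Rb-, beside 15.9% and 20.7% of all genes. Fgf7, a growth factor that stromal cells make for epithelium, read 223, 270.3 and 186 in the p53- Rb- arrays and 1256, 1127 and 896 in the p53- Myc+ arrays, a log2 difference of 2.19 ± 0.24 (adjusted p = 9.27e-08). Pdgfra, a receptor of mesenchymal cells, read 154, 195 and 215 in the p53- Rb- arrays and 705, 636 and 510.2 in the p53- Myc+ arrays, a log2 difference of 1.63 ± 0.19 (adjusted p = 3.59e-07). Both were higher in every p53- Myc+ array. Hgf followed at 1.31, while its receptor gene Met was lower in p53- Myc+ (-1.12). The ligands Pdgfb (-3.47), Pdgfa (-2.80) and Fgf2 (-2.63) were lower there too.

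Immune and early-response genes also lay mostly on the p53- Rb- side. Of 25 immediate early genes 21 were higher there and 2 in p53- Myc+ (median -1.26), with Fos (-2.45), Atf3 (-2.16), Dusp6 (-1.97), Ier3 (-1.91), Dusp5 (-1.80), Dusp1 (-1.65) and Jun (-0.69). Fosl1, the gene of FRA-1, was higher in p53- Myc+ (0.87). Of 35 chemokine and cytokine genes 23 were higher in p53- Rb-. Lcn2, the gene of lipocalin 2, read 5161, 5049 and 5474 in the p53- Rb- arrays and 151, 153 and 169 in the p53- Myc+ arrays, a log2 difference of -4.92 ± 0.15 (adjusted p = 8.53e-17). Ccl2, a monocyte chemokine, read 721, 787 and 788 in the p53- Rb- arrays and 1722, 1586 and 1565 in the p53- Myc+ arrays, a log2 difference of 1.07 ± 0.15 (adjusted p = 3.22e-06). The 2 genes ran in opposite directions without overlap. Cxcl5 was higher in p53- Myc+ too (1.39), which did not pass against p53- (0.23), and p53- Rb- was below p53- (-1.15). Cxcl16 (-3.84), Lif (-3.50) and Il1a (-3.05) were higher in p53- Rb-.

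Of 29 interferon-stimulated genes 17 were higher in p53- Rb-, including Rtp4 (-2.98), the RNA sensor gene Ddx58 (-2.90), Xaf1 (-2.87), Bst2 (-2.78) and Oasl2 (-2.55). Ifit3 (-0.01), Rsad2 (-0.06) and Cxcl10 (-0.20) did not pass, and both groups were below p53- for each. In antigen presentation 10 of 17 genes were higher in p53- Rb-. Psmb8, an immunoproteasome subunit, read 369, 419 and 215 in the p53- Rb- arrays and 0.0402, 2.82 and 7.62 in the p53- Myc+ arrays, a log2 difference of -4.14 ± 0.25 (adjusted p = 6.45e-12), and Tapbp (-2.31), Tap1 (-1.06) and B2m (-0.91) went the same way. Of 19 acute-phase and complement genes 10 were higher in p53- Rb-, such as Lbp (-3.55), Cp (-3.52) and Hp (-3.17). Saa3, a serum amyloid gene, was higher in p53- Myc+, with 335, 329 and 771 in the p53- Rb- arrays and 1812, 1752 and 1842 in the p53- Myc+ arrays and a log2 difference of 1.99 ± 0.25 (adjusted p = 7.65e-07).

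Of 17 glycolysis genes 7 were higher in p53- Rb- and 2 in p53- Myc+, beside 20.7% and 15.9% of all genes. Those lower in p53- Myc+ included Slc16a3, the lactate exporter MCT4 (-3.46), Aldoc (-3.00), Ldhb (-2.28) and the transporter Slc2a1 (-1.19), whereas Ldha (0.17), Pgk1 (0.06) and Hk2 (0.36) did not pass. Slc16a1, the transporter MCT1, was higher in p53- Myc+ (1.28), as was Pdk1 (1.18). Of 21 hypoxia-induced genes 11 were higher in p53- Rb-. Car9, a carbonic anhydrase, read 231, 186 and 210.4 in the p53- Rb- arrays and 14.9, 11.5 and 18.2 in the p53- Myc+ arrays, a log2 difference of -2.87 ± 0.17 (adjusted p = 5.85e-12), and the p53- mean was 37.8. Every p53- Rb- array was above the other 12 arrays of the series for Car9. Egln3, a hydroxylase that hypoxia induces, was higher in p53- Myc+ (1.101).

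Cholesterol synthesis had 8 of 20 genes higher in p53- Myc+ and 3 in p53- Rb-, beside 15.9% and 20.7% of all genes. Idi1 was at 1.44 and Hmgcs1 at 1.12. Of 15 amino acid transporter genes 6 were higher in p53- Myc+, 3 without p53- Myc+ replicate 1, among them the glutamine carrier Slc1a5 (1.20). In the unfolded protein and stress response 13 of 25 genes were higher in p53- Rb-, such as Trib3 (-1.54), Ddit3 (-1.04) and Xbp1 (-1.02), and Hspa5 (0.04) and Atf4 (-0.16) did not pass. Of 18 antioxidant genes under NRF2 6 were higher in p53- Rb-, with Gsta4 at -3.13 and Nqo1 at -1.501, while Gstm1 was higher in p53- Myc+ (1.09).

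Of 36 Hox genes 14 were higher in p53- Myc+ and 3 in p53- Rb-. Hoxa9 read 23.9, 32.4 and 29.2 in the p53- Rb- arrays and 102, 102 and 119 in the p53- Myc+ arrays, a log2 difference of 1.48 ± 0.18 (adjusted p = 8.04e-07). Hoxd8 read 54.2, 41.5 and 49.3 in the p53- Rb- arrays and 176, 194 and 194 in the p53- Myc+ arrays, a log2 difference of 1.67 ± 0.19 (adjusted p = 2.39e-07). Both were free of overlap, and Hoxa10 (1.47), Hoxc10 (1.30), Hoxc9 (1.17) and Hoxd4 (1.12) joined them. Of 27 T-box and limb or trunk factors 7 were higher in p53- Myc+ and 6 in p53- Rb-, beside 15.9% and 20.7% of all genes. They included Shox2 (2.58) and Tbx15 (2.08) against Irx3 (-2.30), Eya2 (-1.93) and Msx2 (-1.31). Of 17 imprinted growth genes 10 were higher in p53- Rb- and 2 in p53- Myc+. Nnat, neuronatin, read 1411, 1181 and 1859.5 in the p53- Rb- arrays and 9.37, 64.3 and 37.1 in the p53- Myc+ arrays, a log2 difference of -4.95 ± 0.28 (adjusted p = 2.14e-12). Peg10, a gene derived from a retrotransposon, read 134, 128 and 219 in the p53- Rb- arrays and 1188, 1658 and 1112 in the p53- Myc+ arrays, a log2 difference of 2.94 ± 0.24 (adjusted p = 1.42e-09). These 2 genes of opposite direction did not overlap between groups, and Dlk1 was the other one higher in p53- Myc+ (1.30).

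The remaining genes at the upper end were Klhl13, Aldh1a1, Ebf3, Meox2, Mid1, B4galnt4, Slc1a3, Vcam1 and Dpt. Aldh1a1, a retinal dehydrogenase, read 18.97, 16.7 and 26.01 in the p53- Rb- arrays and 275, 379 and 307 in the p53- Myc+ arrays, a log2 difference of 3.20 ± 0.17 (adjusted p = 5.01e-13). Ebf3, a transcription factor, read 32.5, 37.7 and 39.5 in the p53- Rb- arrays and 462, 452 and 469.5 in the p53- Myc+ arrays, a log2 difference of 3.19 ± 0.14 (adjusted p = 3.70e-14). Vcam1, a vascular adhesion molecule, read 162, 158 and 137 in the p53- Rb- arrays and 867, 883 and 854 in the p53- Myc+ arrays, a log2 difference of 2.39 ± 0.21 (adjusted p = 2.36e-09). All 3 had p53- means of 15.04, 34.7 and 58.8, below their p53- Myc+ arrays. Mid1 was of another kind, with 1.87, 6.23 and 135 in the p53- Rb- arrays and 249, 228 and 241 in the p53- Myc+ arrays and a p53- mean of 249. Its difference of 2.71 ± 0.45 came with unequal p53- Rb- arrays, of which replicates 1 and 2 were at the bottom of the scale and replicate 3 was not, and p53- Myc+ did not pass against p53- (-0.05). At the lower end, beside keratins and claudins, were the secreted genes Wfdc2 (-7.10), Wfdc18 (-6.70) and Clu (-6.66) and the membrane protein gene Serinc2 (-6.12).

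**Figure D3:**
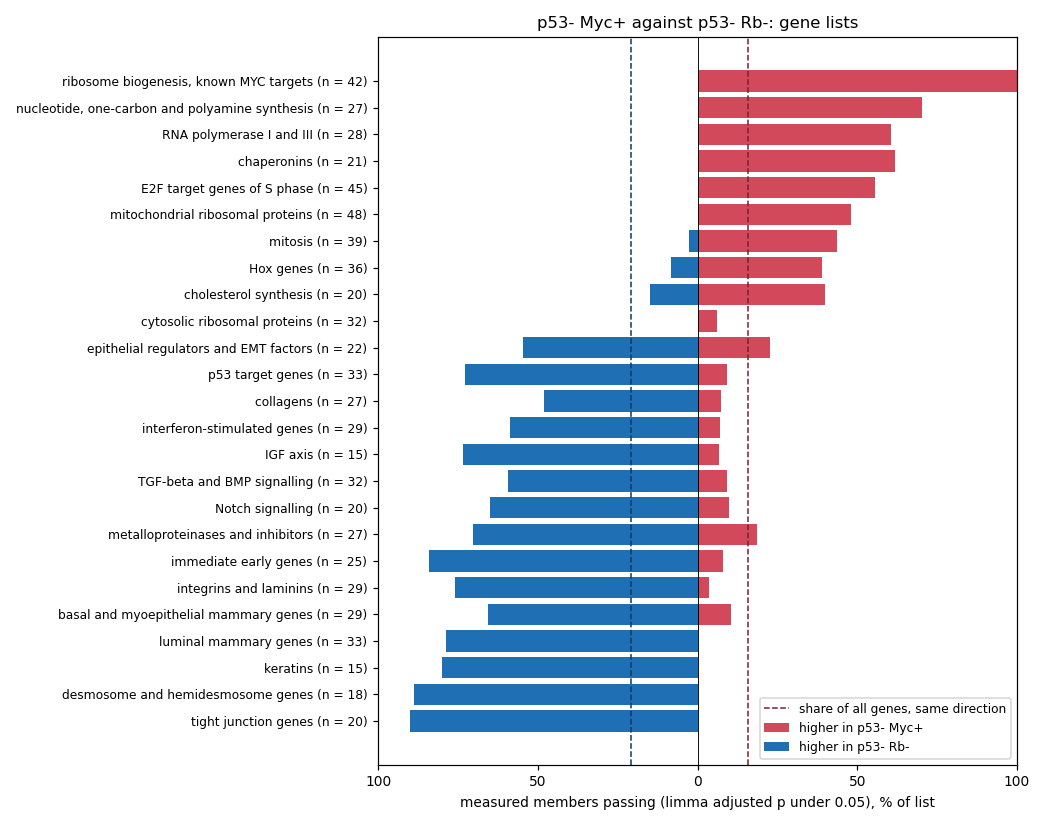
Bars give the percentage of each list's measured members (n) that passed as higher in p53- Myc+ (right) or p53- Rb- (left), and dashed lines mark the share of all genes in each direction (15.9% and 20.7%). All ribosome biogenesis genes lie on the right and keratin, junction and desmosome genes only on the left.

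Markers of other cell types were read in the same arrays. Their counts stand beside 15.9% of all genes higher in p53- Myc+ and 20.7% higher in p53- Rb-. Fibroblast markers summed to 9575 to 12719 in p53- Rb-, 8719 to 9335 in p53- Myc+ and 4900.4 to 5279 in p53- arrays, with 5 of 21 higher in p53- Myc+, 10 in p53- Rb- and 3 under 16 in p53- Myc+. They split within the list, since Pdgfra and Dpt were higher in p53- Myc+ (2.39 for Dpt) and Thy1 (-3.41), Pdpn (-4.27) and Col15a1 (-2.88) were near the bottom of the scale there. Pericyte and smooth muscle markers summed to 7233 to 7396 and 4137 to 4296 in the 2 groups, with 8 of 16 higher in p53- Rb- and 0 in p53- Myc+. Endothelial markers summed to 1499 to 1536 and 762 to 836, with 8 of 19 higher in p53- Rb- and 1 in p53- Myc+. The defining genes Pecam1 and Cdh5 read 2.22, 6.36 and 2.63 and 9.54, 0.930 and 7.15 in p53- Myc+. Cdh5 was higher in p53- Rb-, with differences of -5.43 to -2.10 over the alternatives run. Leukocyte markers summed to 1207 to 1358 and 609 to 711, with 7 of 21 higher in p53- Rb-. Over the alternatives run these included Cd14, also a luminal gene here (-4.11 to -2.49), Cd53 (-1.91 to -0.72), Cd68 (-1.41 to -0.68) and Csf1r (-1.01 to -0.36). Cd3e was the 1 member higher in p53- Myc+, a call lost in 7 alternatives. The pan-leukocyte gene Ptprc read 27.3, 31.4 and 18.5 in the p53- Rb- arrays and 33.9, 19.4 and 41.6 in the p53- Myc+ arrays, without a call (0.17).

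Adipocyte markers summed to 1336 to 1485 and 1405 to 1466, with 5 of 13 higher in p53- Rb-, 3 without p53- Myc+ replicate 1. Adipoq (0.08) and Plin1 (0.25) did not pass, and Lpl (1.29) was 1 of 3 members higher in p53- Myc+. Cidea was higher in p53- Rb-, at -2.37 to -0.29 over the alternatives run. Schwann, neural and melanocyte markers summed to 2293 to 2413 and 1462 to 1733, with 8 of 15 higher in p53- Rb-, among them Sox10 (-3.16), which myoepithelium also expresses. Tubb3 was the member higher in p53- Myc+, with 147, 181 and 142 in the p53- Rb- arrays and 924, 701 and 851 in the p53- Myc+ arrays and a log2 difference of 2.28 ± 0.20 (adjusted p = 3.17e-09). Skeletal muscle markers summed to 1074 to 1182 and 789 to 857, with 3 of 16 higher in p53- Myc+ and 3 in p53- Rb-. Over the alternatives run Acta1 was higher in p53- Rb- (-3.93 to -2.25) and Ckm in p53- Myc+ (0.45 to 0.86). The muscle factors Myod1 (0.20), Myog (0.23) and Pax7 (0.32) did not pass. The part of other cell types in the epithelial, matrix and growth results was not tested. Counts of up to 3 members in one direction of any list moved between 0 and 5 when 1 array was left out.

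Each group was also set beside the p53- arrays, which both contrasts share, so the values are given side by side. The p53- Myc+ group had 2606 genes above and 4034 below p53-, and the p53- Rb- group 1866 above and 2083 below. Keratins had medians of -3.80 against 0.03 (p53- Myc+ against p53- Rb-), tight junction genes -2.58 against 0.07, luminal genes -3.08 against 0.18 and p53 targets -0.99 against 0.11, while the medians of all genes were -0.09 and -0.08. For these lists it was the p53- Myc+ group that lay away from p53-. Ribosome biogenesis genes had 0.84 against -0.11, with 33 above and 0 below p53- in p53- Myc+ and 1 above and 7 below in p53- Rb-. S-phase genes had 0.72 against 0.25, with 34 and 11 above p53- and 0 and 4 below. Mitosis genes had 13 and 6 above and 2 and 10 below. Collagens had -0.21 against 0.76, with 9 of 27 above and 10 below p53- in p53- Myc+ and 15 above and 1 below in p53- Rb-. Medians of glycolysis genes were 0.19 against 0.53, with 7 and 11 of 17 above p53- and 4 and 0 below. Those of hypoxia-induced genes were -0.11 against 0.57, with 4 and 11 of 21 above and 5 and 0 below. For mesenchymal genes they were 0.21 against 0.59, with 11 and 17 of 30 above and 10 and 1 below.

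**Figure D4:**
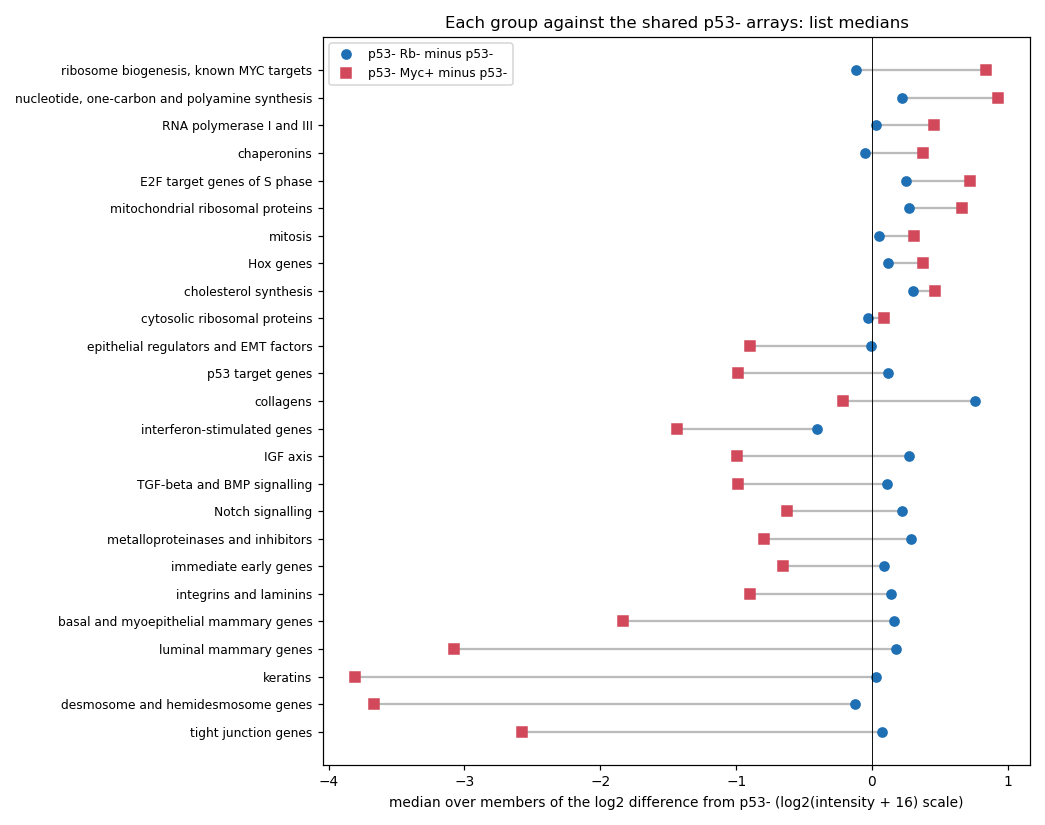
Points give, for each list, the median log2 difference of its members from the p53- arrays in p53- Rb- (circles) and p53- Myc+ (squares), on the log2(intensity + 16) scale. Circles stay within 1 of 0, whereas the squares of keratin, desmosome, luminal and tight junction genes lie between -3.80 and -2.58.

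The arrays of p53- Rb- Myc+ and p53- share none with the 2 groups compared, and the same genes were read in them. These cells differ by the Rb deletion and MYC together, and the fit shares its estimate of the spread. Of all genes 29.8% passed there, 13.3% higher in the triple group and 16.5% higher in p53-. Of the 637 genes at least 2-fold higher in p53- Myc+, 406 (63.7%) were higher in the triple group, 11 lower and 220 did not pass. Of the 2183 at least 2-fold higher in p53- Rb-, 1782 (81.6%) were lower in the triple group, 51 higher and 350 did not pass. Ribosome biogenesis genes had 34 of 42 higher and 0 lower in the triple group, keratins 0 and 11 of 15, and p53 targets 2 and 20 of 33. In the triple group against p53-, Krt18 differed by -6.88, Cdh1 by -5.67, Fbl by 1.11, Cad by 1.51, Sfrp2 by 3.29 and Ebf3 by 3.29. S-phase genes had 35 of 45 higher and 0 lower in the triple group, and mitosis genes 13 of 39 higher and 1 lower. Among single members, Hells (-0.18), Pola1 (0.23), Smc2 (-0.03) and Bub1 (-0.06), which were low in p53- Rb-, did not pass.

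**Figure D5:**
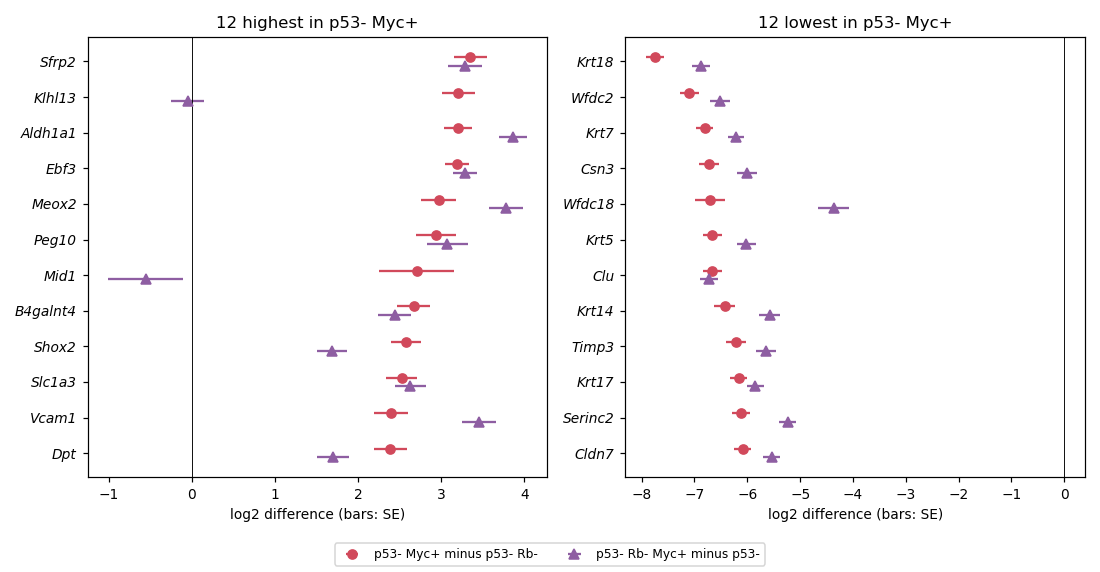
The 12 genes with the highest (left) and lowest (right) differences are shown with p53- Myc+ minus p53- Rb- (circles) and p53- Rb- Myc+ minus p53- (triangles, arrays used by neither group); bars are SE. The 12 lowest are low in both, while Klhl13 and Mid1 are near 0 or below it in the second contrast.

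Some genes set p53- Myc+ apart from both p53- Rb- and the triple group. Klhl13, an adaptor of a ubiquitin ligase, read 51.1, 57.6 and 82.5 in the p53- Rb- arrays and 795, 673 and 667 in the p53- Myc+ arrays, a log2 difference of 3.20 ± 0.20 (adjusted p = 7.89e-12), but 27.6, 31.9 and 36.6 in the triple group and 34.97 on average in p53-. Only the p53- Myc+ arrays were high. Tubb3 likewise read 77.4, 68.3 and 121 in the triple group, and Hoxd8 45.9, 67.9 and 42.5. In the other direction, Serping1, the gene of the C1 inhibitor, read 987, 951 and 1576 in the p53- Rb- arrays and 16.4, 14.5 and 18.5 in the p53- Myc+ arrays (-5.15 ± 0.18) and 679, 674 and 646 in the triple group. Efemp1, a fibulin, read 125, 149 and 149 in the p53- Rb- arrays and 10.96, 14.8 and 0.0223 in the p53- Myc+ arrays and 1147, 1021 and 879 in the triple group. Igfbp4 had means of 32.8 in p53- Myc+, 742 in the triple group and 321 in p53- Rb-. Grb10, an imprinted adaptor, had 45.03, 471 and 356 in the same order. These genes were picked after their values were seen, and their differences between p53- Myc+ and the triple group are given as values.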

How the data were processed

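Per the labels' protocols, the WT-Ovation Pico system amplified RNA of mouse mammary epithelial cells, which went onto Affymetrix Mouse Gene arrays, 1 per sample. The authors deposited 1 intensity per probe set, and the submitters' processing notes name Affymetrix Expression Console 1.1. How probe sets were summarised, scaled or centred is not given in the sources used here, and neither are batches. Deposited intensities ran from 4.11e-05 to 8348.1 without negatives, so log2(intensity + 16) was taken. The number of arrays limits the precision; an exact test of 3 against 3 cannot go below p = 0.1.

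Of 35556 probe sets, 21789 had 1 gene symbol, 1621 several, and 12146 were not listed in the platform annotation. Of 21698 symbols checked through Entrez numbers against GRCm38.p6 gene names, 0 changed. For each of 19938 genes the brightest probe set over the 15 arrays was kept (999 genes had more than 1). One limma 3.58.1 fit in R 4.3.3 (lmFit, then eBayes) held 5 group means over all 15 arrays, with 10 residual degrees of freedom and 11.78 from the prior. Tests were 2-sided with Benjamini-Hochberg adjustment over all genes. The fit was tested on simulated data with known changes.

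The comparison, the 54 gene lists (1304 of 1401 entries matched) and the tests were chosen with earlier results of these data known, and lists share members. Named were Rb1 and Myc, the 12 highest and 12 lowest differences (called genes no dimmer than the median gene, arrays without overlap), and of each list preset members and the 4 others with the smallest p. Promoter and miRNA sequences are RefSeq's. Alternatives are given in the closing section.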

Additional observations from a re-analysis of the deposited data

How the results depend on the processing

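The 7292 genes that passed became 6803 with 1 added before the logarithm, 7320 with 64, 7256 with arrays centred on their median, 7475 after quantile normalization, 7022 with only the 6 arrays, 9268 with array weights, 7379 with a trend in the variance prior, 7299 with the mean of a gene's probe sets, and 5392 of the 9969 genes at or above the median level. Leaving out each array in turn gave 6080 to 7172. The share of these calls that were higher in p53- Myc+ ran from 39.1% to 48.6% (43.5% as reported). The 5949 calls of p53- Rb- Myc+ against p53- became 4835 to 7383. The 2820 genes of at least 2-fold difference became 1564 with 64 added, which shrinks differences of dim genes by construction; the keratin median ran from -6.16 to -3.23 and the tight junction median from -3.79 to -1.59 over the alternatives. A replicate block (the number as a term) gave 7373 calls. Same-number deviations correlated at 0.113, 0.007 and 0.171, and pairs of unlike number at -0.196 to 0.150. The p53- Myc+ replicate 1 correlated best with p53- Rb- replicate 2. With 3 arrays per group these values cannot show whether arrays of the same number share a preparation. No named gene that passed reversed its direction under any alternative run, and 0 to 18 of the named genes that passed lost their call under any one of them. Genes under about 16 sit at the bottom of the scale, and their order there carries no information.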
